A study of Mus musculus with 8 samples.

Results

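A set of 10 genes of epidermal terminal differentiation were followed here, and they were chosen by symbol: Ivl, Sprr1a, Rptn, Calm4, Krtdap, Dmkn, Sbsn, Lypd3, Spink5 and Dapl1. All 10 were found among the 27514 genes that are listed for every library. The libraries are droplet single-cell RNA-seq of thymic epithelial cells (TEC), in which each captured mRNA molecule is counted once as a UMI (unique molecular identifier). There are 8 libraries from wild-type C57BL/6 (CD45.2) mice, all sorted as viable (DAPI-) EpCAM+ CD45- cells. The E13.5 library holds total TEC, the E15.5, E17.5, newborn (NB) and 2 adult cTEC libraries hold the Ly51+ UEA-1- cortical gate, and the 2 adult mTEC libraries hold the Ly51- UEA-1+ medullary gate. The study groups adult replicates 1 with E13.5, E15.5 and NB (data set 1), and adult replicates 2 with E17.5 (data set 2). For both adult replicates 2 the labels give the gate and genotype but no age, and the adult grouping comes from the study's methods. Nothing in the sources used here says how many animals were pooled per library, so the p-values below measure the spread between libraries, which may be technical. No treatment or transgene was used in any library.

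As background, keratinocytes that leave the basal layer of stratified skin stop dividing and build a cornified envelope, an insoluble shell of proteins that transglutaminases cross-link under the plasma membrane. Secreted and surface proteins, and inhibitors of the proteases that shed the outer layer, are made in the same layers. In the thymic medulla some mTEC take on keratinocyte features after their Aire-expressing stage and form Hassall's corpuscle-like bodies, and Aire+ mTEC also transcribe many tissue-restricted genes in small numbers of cells.

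Some of the genes lie in clusters of the genome (GRCm38, GENCODE M21 annotation), and others lie singly. Sprr1a (ENSMUSG00000050359, chr3:92483952-92485895, minus strand) and Ivl (ENSMUSG00000049128, chr3:92570902-92573735, minus strand) span 89.8 kb together, and Rptn (ENSMUSG00000041984, chr3:93393699-93399442, plus strand) lies on the same chromosome, in the epidermal differentiation complex. Sbsn (ENSMUSG00000046056, chr7:30751471-30756134), Dmkn (ENSMUSG00000060962, chr7:30763756-30781063) and Krtdap (ENSMUSG00000074199, chr7:30787896-30791097) follow each other on the plus strand within 39.6 kb. Lypd3 (ENSMUSG00000057454, chr7:24636550-24641118), Calm4 (ENSMUSG00000033765, chr13:3837757-3838673), Dapl1 (ENSMUSG00000026989, chr2:59484653-59505020) and Spink5 (ENSMUSG00000055561) lie elsewhere.

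The bases upstream of 5 of the genes are shown because both genome clusters are represented among them and each holds a TGANTCA match. They come from RefSeq (GRCm38.p6), 5′ to 3′ along the gene, the 150 bases before the annotated start, with TATAAA and TGANTCA matches on either strand in capitals. The intervals are chr3:92573736-92573885 (minus) for Ivl, chr3:92485882-92486031 (minus) for Sprr1a, chr3:93393549-93393698 (plus) for Rptn, chr7:30787755-30787904 (plus) for Krtdap and chr7:30763606-30763755 (plus) for Dmkn.
Ivl: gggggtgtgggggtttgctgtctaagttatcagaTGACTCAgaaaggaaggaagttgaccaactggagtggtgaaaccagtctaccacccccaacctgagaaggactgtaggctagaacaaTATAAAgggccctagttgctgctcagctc
Sprr1a: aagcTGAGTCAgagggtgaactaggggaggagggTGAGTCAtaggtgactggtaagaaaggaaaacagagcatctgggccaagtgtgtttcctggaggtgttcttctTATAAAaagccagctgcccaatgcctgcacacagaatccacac
Rptn: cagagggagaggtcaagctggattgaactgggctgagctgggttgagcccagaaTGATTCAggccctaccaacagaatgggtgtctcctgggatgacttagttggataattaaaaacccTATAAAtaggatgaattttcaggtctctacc
Krtdap: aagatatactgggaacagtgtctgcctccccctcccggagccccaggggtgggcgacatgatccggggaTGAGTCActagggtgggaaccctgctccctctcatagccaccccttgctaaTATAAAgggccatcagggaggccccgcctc
Dmkn: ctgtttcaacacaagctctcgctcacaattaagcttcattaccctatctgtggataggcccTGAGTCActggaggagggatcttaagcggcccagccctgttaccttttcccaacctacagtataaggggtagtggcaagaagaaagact
In the 300-base windows (250 before to 50 after the start) TGANTCA occurred in at least 1 window of 6 of the 9 genes searched, all but Lypd3, Calm4 and Dapl1, against 7.81% of 32851 windows of all genes. TATAAA occurred in 5 of 9 (Ivl, Sprr1a, Rptn, Krtdap and Dapl1), against 13.6% of windows. CACCC occurred in 8 of 9, against 57.5%, and AACNNGTT in 1 of 9 (Rptn), against 4.20%. Dmkn has 3 windows and counts once, 1 CACCC match of Sprr1a overlaps a TGANTCA match, and the Spink5 window was not searched. Which factors bind these letters was not measured.

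Cells with at most 5% mitochondrial UMIs and at most 5000 genes were kept, and clusters carrying the markers of thymocytes, parathyroid, thyroid or erythroid cells were left out. This left 24425 cells, from 492 and 528 in the adult cTEC libraries to 7427 at E17.5. Median UMIs per cell ranged from 3952 in adult cTEC replicate 1 to 11410 in adult mTEC replicate 2, so shares of cells are compared after each cell was thinned to 2000 UMIs. The gates matched their defining genes: Psmb11, the cortical proteasome subunit, was at 670 and 1404 CPM (UMIs per 1000000 of the library) in adult cTEC against 3.85 and 8.57 in adult mTEC, and Aire at 9.32 and 2.75 against 435 and 399. The adult cTEC libraries still held cells without a Psmb11 UMI and some medullary transcripts. The 6 markers of immature mTEC (Ccl21a, Krt5, Krt14, Itgb4, Pdpn and Trp63) were all detected and summed to 6438 and 1445 CPM in adult cTEC replicates 1 and 2, against 8259 and 3927 in adult mTEC, and the 6 Aire-stage markers to 97.4 and 73.6 against 1108 and 1113. Most of the immature mTEC sum is Ccl21a, at 5429 and 880 CPM in adult cTEC and 6443 and 2894 in adult mTEC. Trp63 of the same list was higher in adult cTEC, at 223 and 90.4 CPM against 34.3 and 19.3. The 8 mesenchymal markers summed to 513 and 321 CPM in adult cTEC against 99.7 and 69.2 in adult mTEC, with 6 of 8 and all 8 detected, and the 6 keratinised mTEC markers that are not among the 10 genes to 58.7 and 60.7 against 106 and 144. At most 84 cell barcodes, and at most 1.90% of those of the smaller library, recurred between any 2 libraries.

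The envelope proteins came first. Ivl, involucrin, the scaffold that transglutaminases cross-link early, was at 7.88 and 2.94 CPM in adult mTEC replicates 1 and 2. It had 0 UMIs in both adult cTEC libraries, where the floor of 3 UMIs over the group is 0.488 CPM, and from the youngest library to NB it had 10, 3, 2 and 2 UMIs (0.716, 0.109, 0.0248 and 0.0864 CPM). The adult groups did not overlap, and the mean of the mTEC libraries was at least 11.1-fold higher than that floor. The level rested on few cells, since 21 of 1585 cells of adult mTEC replicate 1 had an Ivl UMI and 2 of these held 65 of 131 UMIs.

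Sprr1a, a small proline-rich protein that bridges other envelope proteins, was at 194 and 237 CPM in adult mTEC and at 34.0 and 6.49 CPM in adult cTEC. From E13.5 to NB, in order of age, it was at 5.80, 0.218, 0.223 and 1.34 CPM. The adult mTEC libraries were higher than every other library, and the adult cTEC libraries differed from each other by more than their counting intervals. Rptn, repetin, an S100-type envelope precursor, was at 13.3 and 31.3 CPM in adult mTEC and 10.2 and 5.74 in adult cTEC. It had 0 UMIs in the 3 embryonic libraries and 1 UMI at NB, so it was not detectable in the libraries before adulthood apart from that molecule. None of these libraries holds the medullary gate, so age and gate cannot be told apart here. At E13.5 the floor of 3 UMIs was 0.215 CPM and the exact upper limit of this count of 0 was 0.264 CPM. The cTEC level of Rptn came from few cells, with 20 of 23 UMIs of replicate 2 in 1 cell. Calm4, a skin calmodulin-like calcium-binding protein, was at 17.3 and 43.7 CPM in adult mTEC. It had 0 UMIs in both adult cTEC libraries and in the E15.5 and E17.5 libraries, and 1 UMI each at E13.5 and NB. The adult mTEC mean was at least 62.5-fold higher than the cTEC floor of 3 UMIs over the group. In adult mTEC replicate 1 the top 1% of cells held 90.6% of the Calm4 UMIs.

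The secreted proteins of the chromosome 7 cluster differed in when they were detected. Krtdap, the keratinocyte differentiation-associated protein, was at 197 CPM at E13.5 (95% counting interval 190 to 205), which was higher than the 171 and 182 CPM of adult mTEC. In the 3 later cTEC libraries before adulthood it lay at 14.5, 2.59 and 2.63 CPM in order of age, and in adult cTEC at 55.4 and 31.0. E13.5 is 1 library of total TEC and the later fetal libraries are gated cTEC, so age and gate cannot be told apart in this drop. Dmkn, dermokine, was also highest at E13.5 among the libraries before adulthood, with 33.7, 0.655, 0.198 and 1.25 CPM in order of age. In adults it was at 25.2 and 10.7 CPM in cTEC and at 90.1 and 117 in mTEC, with no overlap. Sbsn, suprabasin, stood apart from its neighbours. It was at 25.3 CPM at E13.5 and then at 12.4, 11.9 and 11.7 CPM, 3 values whose counting intervals overlap. In adults it was at 51.2 and 23.7 CPM in cTEC and 33.1 and 58.2 in mTEC, and the groups overlapped. The Sbsn level of adult cTEC replicate 1 held 60 of its 110 UMIs in 1 cell, whereas at E17.5 no cell had more than 4 of 963 UMIs.

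The surface protein, the inhibitor and Dapl1 complete the set. Lypd3, a GPI-anchored LY6/PLAUR-domain protein of suprabasal cells, was at 6.14 and 12.8 CPM in adult mTEC and at 1.40 and 1.25 in adult cTEC, which are 3 and 5 UMIs. It was at 8.59 CPM at E13.5, within the range of the adult mTEC libraries, and then at 1.67, 1.83 and 0.648 in order of age. Spink5, which encodes LEKTI, an inhibitor of skin kallikreins, was at 117 and 26.0 CPM in adult cTEC and at 22.4 and 49.3 in adult mTEC. It is the only one of the 10 with its highest library among the cTEC, and the groups overlapped. Before adulthood it had 7, 1, 5 and 20 UMIs in order of age, and all 20 of the NB UMIs were in 1 cell. Dapl1, death-associated protein-like 1, a protein of early epithelial differentiation, was at 121 and 250.3 CPM in adult mTEC and 66.6 and 49.2 in adult cTEC. It was at 3.08 CPM at E13.5 and then at 1.35, 1.02 and 1.08. In bulk sums of this kind, fewer cells with a transcript and less RNA per cell cannot be told apart, and the cell-level values below bear on that.

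**Figure D1:**
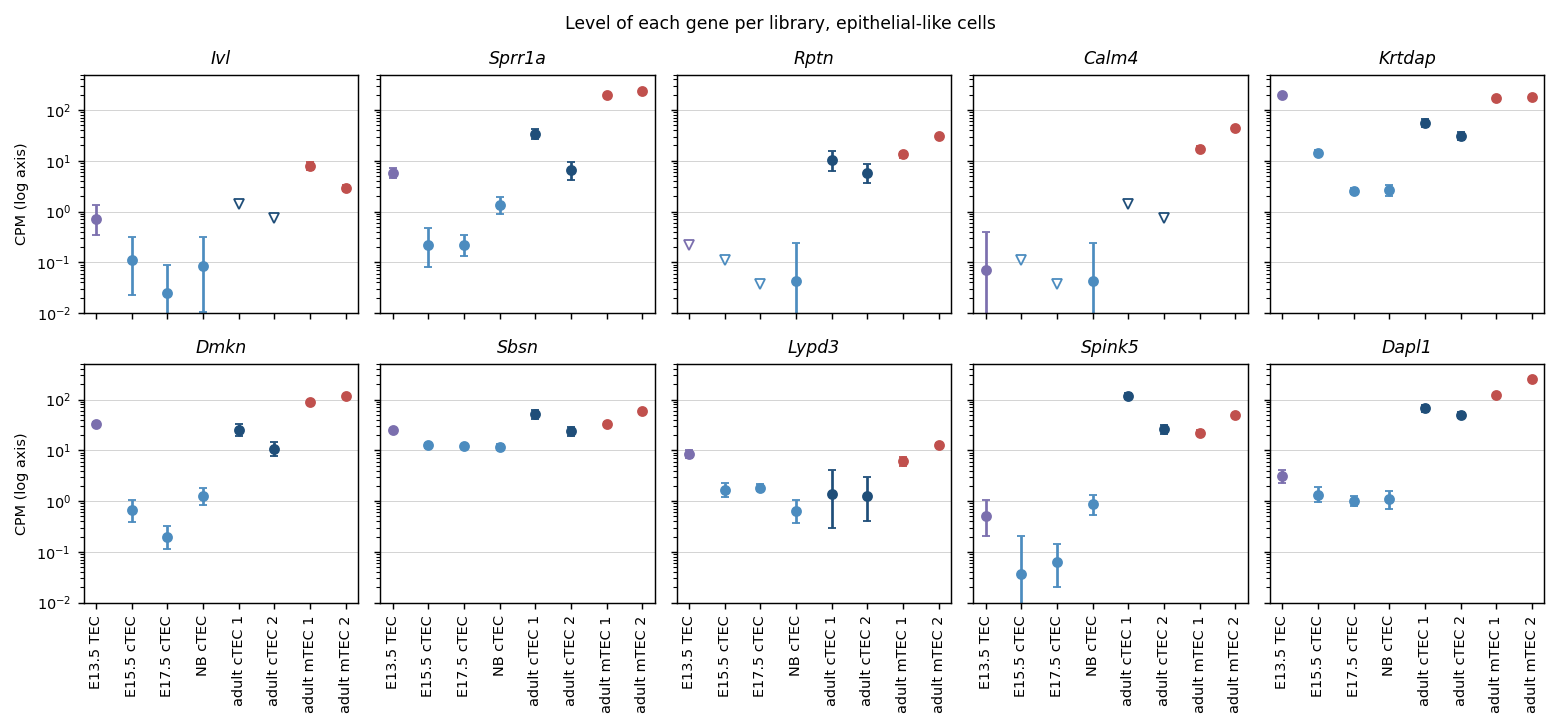
Level of each of the 10 genes in the 8 libraries, in CPM on a log axis, with 95% exact Poisson intervals; open triangles mark libraries with 0 UMIs, drawn at the level of 3 UMIs. Krtdap at E13.5 (197 CPM) stands beside adult mTEC (171 and 182 CPM), while Calm4 and Ivl have 0 UMIs in both adult cTEC libraries.

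To ask which of the 10 differ between the adult lineages, UMIs summed per library were tested with edgeR's quasi-likelihood test with the data set as a term. Of the 10 genes, 8 were lower in adult cTEC at an adjusted p below 0.05 and 0 were higher, where 21.1% of the 15619 genes tested were lower and 11.2% higher (32.3% in either direction). All 10 passed the filter on low counts, but Ivl and Calm4, with 0 cTEC UMIs, passed only through mTEC and could differ in 1 direction only, so the count of 8 is a description. Both adult mTEC libraries lay above both adult cTEC libraries for the same 8 genes, which was the case for 37.5% of all genes tested. The median log2 fold change (cTEC minus mTEC) of the 10 was -2.43, also with the genes at 0 set to their bound, and that of all genes tested was -0.14.

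Sprr1a was 14.4-fold higher in mTEC (log2 -3.85 ± 0.49 SE, edgeR adjusted p = 3.73e-08) and Dmkn 6.51-fold higher (log2 -2.70 ± 0.43, adjusted p = 2.68e-06). Krtdap was 4.47-fold higher (log2 -2.16 ± 0.40, adjusted p = 3.18e-05). Lypd3 was 7.58-fold higher (log2 -2.92 ± 0.68, adjusted p = 0.000778), on 8 cTEC UMIs. Both mTEC libraries stood above both cTEC libraries for each of these. Dapl1 was 3.20-fold higher in mTEC (log2 -1.68 ± 0.41, adjusted p = 0.00116) and Rptn 2.84-fold higher (log2 -1.51 ± 0.48, adjusted p = 0.0126). Calm4 (adjusted p = 1.52e-10) and Ivl (adjusted p = 0.00021) were called from 0 cTEC UMIs, and their sizes are the bounds given above. Sbsn (log2 -0.40 ± 0.42, adjusted p = 0.518) and Spink5 (log2 0.68 ± 0.51, adjusted p = 0.331) were not called.

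Within data set 1, where each gate has 1 library and log2(CPM + 1) was compared without a test, the differences were smaller than in data set 2 for all 6 called genes that had cTEC UMIs. Rptn was 1.30-fold higher in mTEC in data set 1 and 5.45-fold in data set 2, Krtdap 3.09-fold and 5.88-fold, and Sprr1a 5.71-fold and 36.5-fold. Dapl1 was 1.82-fold and 5.09-fold higher in mTEC, Lypd3 4.39-fold and 10.3-fold, and Dmkn 3.58-fold and 10.9-fold. For Sbsn and Spink5 the direction itself changed. Spink5 was 5.23-fold higher in cTEC in data set 1 and 1.90-fold higher in mTEC in data set 2, and Sbsn 1.55-fold higher in cTEC and 2.45-fold higher in mTEC. The fit leaves 1 residual degree of freedom. When 1 adult library was left out, the data set term was dropped, and the gate left with 1 library was assumed to vary like the other. In these fits 4 genes were called without adult cTEC replicate 1 (Sprr1a, Dmkn, Krtdap and Calm4), 3 without adult cTEC replicate 2 (Sprr1a, Dmkn and Krtdap), 7 without adult mTEC replicate 1 (all but Ivl) and 5 without adult mTEC replicate 2 (all but Lypd3, Dapl1 and Rptn). DESeq2 called 5, with adjusted p = 0.129 for Calm4, 0.0518 for Lypd3 and 0.193 for Rptn.

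**Figure D2:**
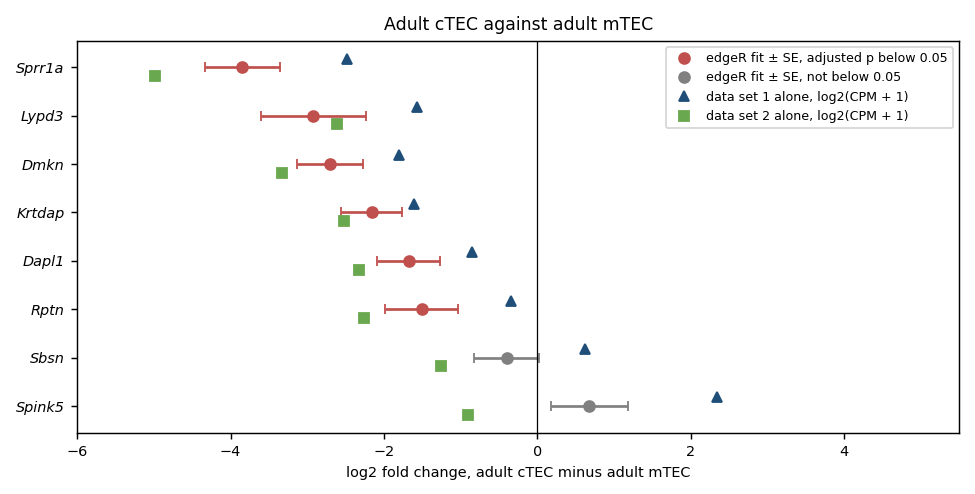
Adult cTEC minus adult mTEC on a log2 axis for the 8 genes with cTEC UMIs, as the edgeR fit with its standard error (circles) and as log2(CPM + 1) differences in data set 1 (triangles) and data set 2 (squares). The data sets lie on the same side of 0 for 6 genes and on opposite sides for Sbsn (0.62 and -1.26) and Spink5 (2.33 and -0.90).

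How widely were the genes detected among cells? After thinning, Krtdap had a UMI in 13.4% and 13.7% of adult mTEC, Dapl1 in 14.4% and 17.9%, Sprr1a in 12.9% and 19.9%, and Dmkn in 11.2% and 13.6%. Calm4 was detected in 1.24% and 3.49%, Lypd3 in 1.06% and 2.5%, Rptn in 1.44% and 4.93%, and Ivl in 0.704% and 0.473%. The chromosome 7 genes Krtdap and Dmkn thus had UMIs in many mTEC, and Rptn, Calm4 and Ivl in few. In adult cTEC the shares of Krtdap were 5.81% and 2.70%, of Dapl1 4.73% and 4.85%, and of Sprr1a 2.69% and 0.981%. Without thinning, Krtdap had a UMI in 21.9% and 40.3% of adult mTEC, so the shares depend on depth.

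A share of cells with a UMI is not a share of expressing cells. In adult mTEC replicate 2, 151 cells had UMIs of at least 3 tuft cell markers (median 8322 UMIs, against 11638 in the other cells), a cell type not known for these genes. Among these, thinned shares were 17.8% for Dapl1, 18.2% for Sprr1a, 12.2% for Krtdap and 11.4% for Dmkn, close to the 17.9%, 19.9%, 13.7% and 13.7% of the other cells. At least 1 of the 10 genes was found in 43.0% of these cells (95% interval 35.0% to 51.3%) and in 53.6% of the others (52.3% to 55.0%). Shares with a UMI are read as detection, not as shares of expressing cells. The same 151 cells included ones with up to 137 Dapl1 and 120 Krtdap UMIs, and the part of free RNA in the shares was not tested. The shares of Spink5 were 3.20% against 5.63%, of Rptn 2.80% against 4.99% and of Lypd3 7.15% against 2.36%, on few of the 151 cells. Counting only cells with 3 or more UMIs of a gene among 2000, a measure chosen after the data were seen, gave 5.64% and 3.59% of adult mTEC for Krtdap against 1.84% and 0.850% of adult cTEC. For Sprr1a it gave 4.77% and 5.13% against 0.646% and 0.154%, and for Dapl1 3.32% and 5.48% against 1.35% and 0.874%. In the cells with tuft markers this stricter share was 2.82% for Krtdap, 4.14% for Sprr1a and 5.41% for Dapl1. With this measure 9 of the 10 genes, all but Spink5, were higher in both adult mTEC libraries than in both adult cTEC libraries. The thinned share with 1 or more UMIs gave 9 as well. How often this holds among all genes was not computed for either measure, so nothing is read from these counts. On the stricter measure Ivl, Calm4 and Lypd3 were at 0 in both adult cTEC libraries and could differ in 1 direction only. Sbsn was at 0.587% and 1.34% of adult mTEC against 0.561% and 0.298% of adult cTEC.

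In adult cTEC, detection of at least 1 of the genes was more frequent in cells without a Psmb11 UMI. Of the cells with a Psmb11 UMI, 8.25% and 7.39% in replicates 1 and 2 had a UMI of at least 1 of the 10 genes after thinning, against 27.6% and 32.1% of the cells without one. The exact binomial intervals (4.88% to 12.9% against 21.8% to 34.0% in replicate 1) did not overlap. Spink5 was in 1.18% and 0.322% of cells with a Psmb11 UMI and in 7.51% and 7.57% of the others, and Dapl1 in 0.981% and 1.03% against 8.22% and 13%. Sbsn differed less, with 3.32% and 3.48% against 4.45% and 4.69%, and Krtdap was in 2.99% and 2.07% against 8.43% and 4.06%. Cells without a Psmb11 UMI had fewer UMIs (medians 3628 and 5584 against 5075 and 8211), and the part of medullary or other non-cortical cells in the adult cTEC levels was not tested.

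The same split was seen at E13.5, where 8.62% of 1067 cells with a Psmb11 UMI and 25.2% of 719 cells without one had at least 1 of the genes, at like depth (medians 7113 and 7351). Krtdap was in 5.36% of the first and 20.1% of the second, Dmkn in 1.36% and 7.09%, and Lypd3 in 0.768% and 2.45%. Of Rptn, Calm4 and Ivl there were 0, 1 and 10 UMIs in all 1790 cells. At E15.5 119 of 3549 thinned cells lacked a Psmb11 UMI, and Krtdap was in 10.2% of these against 1.06% of the others. At NB at least 1 of the genes was in 13 of 192 cells without a Psmb11 UMI (6.77%, exact interval 3.65% to 11.3%) and in 106 of 3245 cells with one (3.27%, 2.68% to 3.94%), and the intervals overlapped. The thinned shares at NB were 0.738% and 0.482% for Krtdap, 1.05% and 0.160% for Sprr1a, and 0.13% and 0.240% for Dapl1, in the same order of cells.

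Detection of several genes in 1 cell was then counted. At least 1 of the 10 genes was found in 39.7% and 53.4% of thinned adult mTEC, 18.3% and 15.3% of adult cTEC, 15.3% of E13.5 TEC, and 4.34%, 3.40% and 3.46% of the later cTEC libraries up to NB. At least 3 were found in 78 of 1585 and 401 of 5490 adult mTEC (4.92% and 7.30%), and independent detection at the same shares would give 1.77% and 4.77%. At least 2 were found in 15.1% and 20.6%, against 12.4% and 22.1% if independent, so in replicate 2 this share lay below the independent value (95% interval 19.6% to 21.7%). The most in a cell was 9 and 10. In adult cTEC 8 of 427 and 1 of 517 cells had at least 3, at E13.5 19 of 1786 (1.06%, against 0.0433% if independent), and 0 at E17.5 and NB, where a count of 0 bounds the share at 0.0502% and 0.107% (exact binomial). All intervals cover counting error only.

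**Figure D3:**
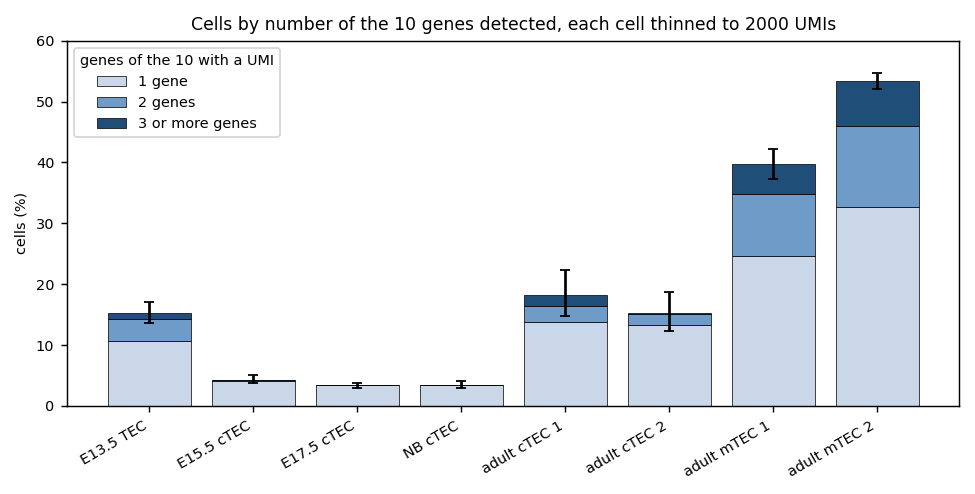
Share of cells with UMIs of 1, 2 or at least 3 of the 10 genes in each library, each cell thinned to 2000 UMIs; whiskers are exact 95% binomial intervals of the share with at least 1. Adult mTEC reach 39.7% and 53.4%, and E13.5 TEC (15.3%) lie near adult cTEC (18.3% and 15.3%).

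Pairs of the genes were found in the same cell more often than their shares alone would give. Of the 45 pairs, 44 had an observed over expected number of cells above 1 in both adult mTEC libraries, the exception being Krtdap with Rptn (0.88 in replicate 1 and 1.47 in replicate 2). These are descriptions over cells of 1 library each, which share capture and free RNA. How many pairs of other genes lie above 1 was not computed. In adult mTEC replicates 1 and 2, 13 and 116 cells held at least 5 of the genes. The part of these cells in the pair ratios was not tested. A ratio cannot exceed the inverse of the larger of the 2 shares, so ratios are not ranked between rarely and widely detected genes. Among the rarely detected genes, Calm4 with Lypd3 had ratios of 29.3 and 8.88, Lypd3 with Spink5 21.7 and 7.85, and Rptn with Spink5 19.2 and 5.05. In replicate 1 these rest on few cells, such as 6.15 cells with both Calm4 and Lypd3 against 0.21 expected. The abundantly detected genes gave the largest numbers of cells, with Krtdap and Dapl1 together in 93.3 cells (30.5 expected) and 248 cells (134 expected), and Krtdap and Dmkn in 75.8 (23.9 expected) and 218 (102 expected). Sprr1a, also abundantly detected, had ratios near 1 to Dapl1 (1.01 and 1.16) and to Krtdap (1.12 and 1.18). At E13.5, 23 of 36 pairs with any expected cells had a ratio above 1, and the pairs with most cells were Krtdap with Dmkn (45.9 cells, 7.39 expected) and Krtdap with Sbsn (28.5 cells, 7.67 expected).

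**Figure D4:**
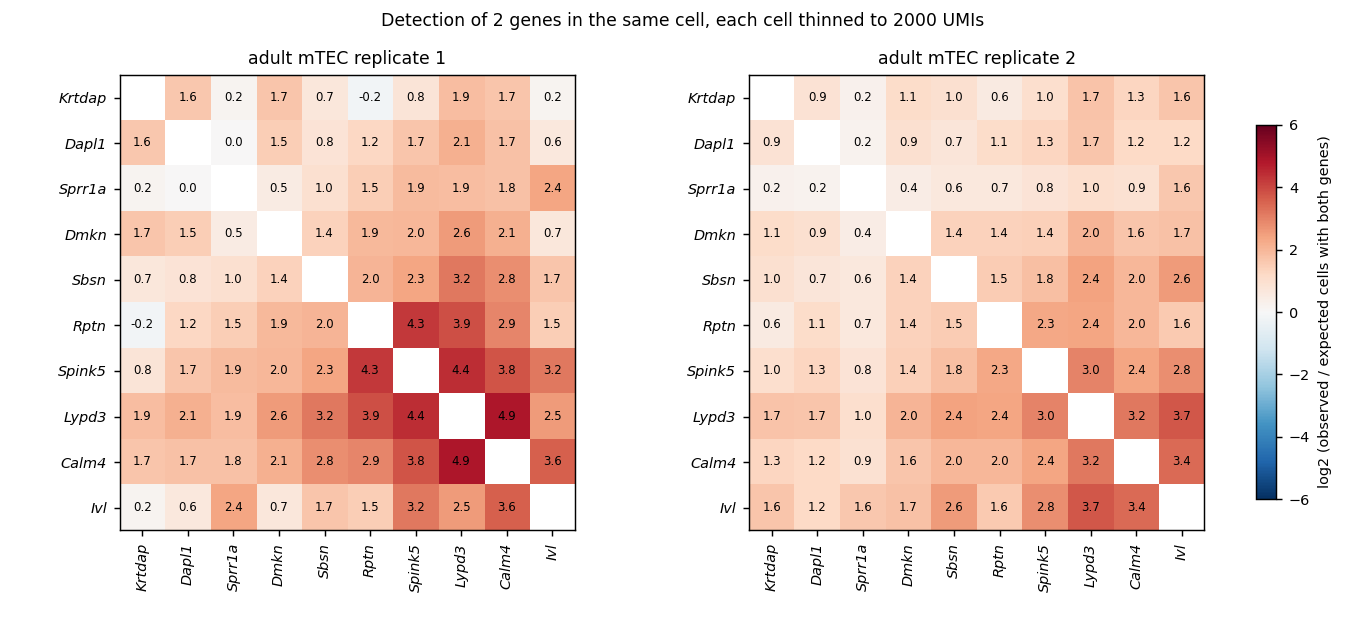
Log2 of observed over expected numbers of cells with both genes of a pair in adult mTEC replicates 1 and 2, each cell thinned to 2000 UMIs; red is above and blue below 0. Calm4 with Lypd3, both rarely detected, has ratios of 29.3 and 8.88 before the log, and the row of Sprr1a lies near 0 with Krtdap and Dapl1.

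Other genes placed the cells. Krt10, a keratin of suprabasal cells, was at 33.5 and 28.5 CPM in thinned adult mTEC with 0 of the genes and at 474 and 723 CPM in those with at least 3, and Krt1, its partner, at 5.76 and 8.20 against 96.2 and 171. Krt10 as a whole did not separate the gates, at 49.8 and 55.9 CPM in adult cTEC and 45 and 59.0 in adult mTEC. Aire went the other way, at 414 and 372 CPM with 0 genes and 122 and 177 with at least 3. Median UMIs also fell along this order, from 10863 to 6301 and from 13029 to 8120, and the part of depth was not tested beyond the thinning. Gene by gene, Lypd3 was found with Krt10 in 5.30 and 5.35 times the number of cells that independent detection gives, Calm4 in 3.93 and 4.38 times and Spink5 in 2.89 and 3.27 times. Krtdap and Dapl1 were found with Krt5, a basal keratin, at ratios of 1.69 and 1.31 and of 1.68 and 1.33, whereas Calm4 (0.63 and 0.82) and Rptn (0.68 and 0.76) were below 1. Sprr1a alone was above 1 with Aire in both libraries (1.43 and 1.10), against 0.35 and 0.82 for Krtdap and 0.26 and 0.70 for Dapl1.

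At E13.5 the cells with these genes carried Krt5 and not more Krt10. Krt5 was at 298 CPM in cells with 0 of the genes, 1793 with 1 gene and 4895 with at least 3, while Krt10 was at 51.2, 55.0 and 26.3. Psmb11 went from 311 to 107 CPM and had 0 UMIs in the 19 cells with at least 3. The observed over expected ratio with Krt5 was 2.87 for Krtdap and 3.56 for Dmkn, and with Psmb11 0.37 and 0.30. Basal keratins were also higher in adult mTEC replicate 1 with at least 3 of the genes than with 0, Krt5 at 1353 against 549 CPM and Krt14 at 2276 against 923. In replicate 2 Krt5 was at 438 against 380 and Krt14 at 701 against 611.

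**Figure D5:**
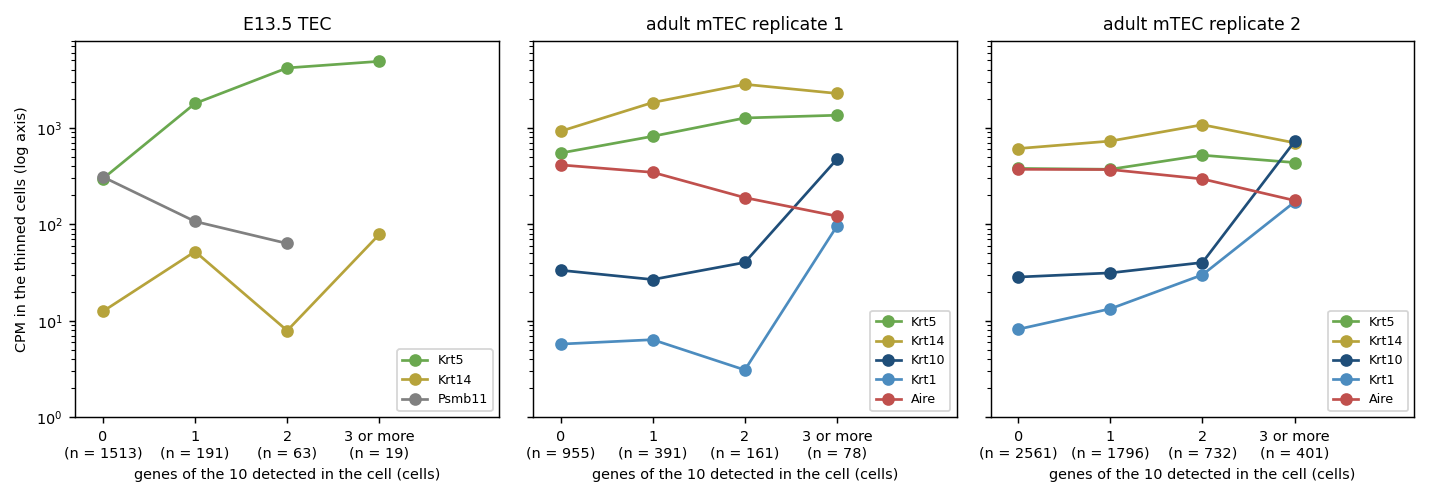
Levels (CPM, log axis) of Krt5 and Krt14 with Psmb11 (E13.5) or with Krt10, Krt1 and Aire (adult mTEC) in thinned cells grouped by how many of the 10 genes had a UMI, with the number of cells under each point; values of 0 are not drawn. In adult mTEC Krt10 is at 474 and 723 CPM in cells with at least 3 genes, of which 19.2% and 22.4% had a Krt10 UMI. Aire is at 122 and 177 in these cells, and at E13.5 Krt5 reaches 4895.

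By a rule that ranked 9781 genes on the smaller of 2 Pearson correlations with the number of the 10 genes per thinned cell (1585 and 5490 adult mTEC), the genes most like the set were Ly6d (r = 0.37 and 0.40), Gsta4 (0.36 and 0.38), Sfn (0.36 and 0.35), Fxyd3 (0.40 and 0.35) and Hspb1 (0.32 and 0.32). Tmem45a, Serpinb2, Calml3, Clic3 and Ly6g6c followed, down to 0.29 and 0.34. The median of the smaller r was -0.01. The cells share library and free RNA, so these values are descriptions. Of these 10 genes, 6 were lower in adult cTEC, 1 was higher and 3 were not called, against 21.1% lower and 11.2% higher among all genes tested. The 10 were chosen within adult mTEC, from genes found in at least 1% of those cells, which favours genes that are lower in cTEC, so nothing is read from this count. Ly6d was lower in adult cTEC (log2 -1.42 ± 0.40, edgeR adjusted p = 0.00548), while Gsta4, a glutathione transferase, was higher (log2 2.13 ± 0.39, adjusted p = 2.85e-05).

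The wider differentiation program was read from 10 lists with 185 other genes, of which 160 were tested. Of these, 89 were lower in adult cTEC and 22 higher, 55.6% lower against 21.1% of all genes tested, with a median log2 of -1.82 (-1.79 with genes at 0 set to their bound) against -0.14. Of the 89, 34 had 0 UMIs in both adult cTEC libraries, passed the filter only through mTEC and could come out lower only, so these counts describe the lists and do not test them. In the epidermal differentiation complex, 26 of 31 tested genes were lower and 3 higher. The files hold 45 of its genes, and 20 of the 26 had 0 UMIs in both adult cTEC libraries. Sprr2i was at 76.8 and 44.7 CPM in adult mTEC and Lce3b, a late cornified envelope protein, at 15.6 and 32.2, both with 0 UMIs in adult cTEC, at least 125-fold and 48.9-fold higher. Sprr2f had 0 cTEC UMIs too (at least 30.3-fold), and Crct1 was at 9.02 and 33.5 CPM in mTEC with 1 UMI in each cTEC library. The 3 higher genes were Sprr2b, Sprr2a1 and Sprr2a2, named here after their values were seen. Their cTEC UMIs came almost wholly from replicate 1, with 61.5 CPM of Sprr2b, 92.7 of Sprr2a1 and 30.7 of Sprr2a2 against 0.25, 0.999 and 0.749 in replicate 2. For none of the 3 were both cTEC libraries above both mTEC libraries, and Sprr2b of cTEC replicate 2 lay below both mTEC libraries (6.26 and 1.34). Sprr2 and Lce genes are near-identical families whose reads can be split between copies, so their single values are uncertain.

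Among all genes tested, 21.1% were lower and 11.2% higher in adult cTEC. Of 13 S100 genes, 8 were lower and 3 higher (S100a1, S100a10 and S100a11). S100a8, a calprotectin subunit, was at 730.3 and 911 CPM in adult mTEC and at 0 and 1.75 in adult cTEC, and S100a9, its partner, at 229 and 249 against 0 and 0.499. Both are also expressed by myeloid cells, and the 8 myeloid markers were all detected and summed to 478 and 599.8 CPM in adult mTEC against 196 and 33.5 in adult cTEC. The part of myeloid RNA in these levels was not tested. S100a14 was lower in cTEC by log2 -3.49 ± 0.44 and S100a3 by -3.02 ± 0.42. Of 12 transglutaminase and scaffold genes, 7 were lower and 0 higher. Serpinb12 was at 67.3 and 119 CPM in mTEC against 0.466 and 1.5, Cnfn, cornifelin, at 21.6 and 29.5 against 0.932 and 0.25, and Tgm3, an epidermal transglutaminase, at 11.4 and 22.2 against 9.32 and 0. Calml3 was lower by log2 -1.79 ± 0.48. Of 16 suprabasal keratin and filament genes, 11 were lower, among them Krt77, Krt13 (log2 -3.66 ± 0.59), Krt16 (log2 -3.42 ± 0.61) and Krt79 (log2 -3.38 ± 0.64), and Krt6a was higher. The cTEC values of the last 3 of these came mostly from replicate 1, with 10, 22 and 13 UMIs against 1, 2 and 1 in replicate 2.

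Of 10 basal genes, 2 were lower (Krt5 and Krt14), 20% against 21.1% of all genes tested, and 3 of 10 were higher in cTEC, against 11.2% of all genes, namely Trp63, the basal transcription factor (log2 2.40 ± 0.39), Dst (log2 1.80 ± 0.38) and Lamb3 (log2 1.64 ± 0.39). The list's median was 0.02. Of 10 desmosome genes tested, 3 were lower (30% against 21.1% of all genes tested) and 4 of 10 higher (against 11.2%), with the desmogleins Dsg1a and Dsg1b and corneodesmosin (Cdsn) lower and Jup, Dsc2, Dsp and Dsc3 higher. Dsg1a was at 57.5 and 42.5 CPM in mTEC against 7.92 and 0.499, and Dsc3 at 27.0 and 13.3 against 86.7 and 102.

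Of 19 tested skin proteases and inhibitors, 11 were lower and 1 higher (Serpinb6c). Klk7 and Klk5, kallikreins that LEKTI inhibits, were at 35.6 and 32.0 CPM and at 26.9 and 20.4 CPM in adult mTEC, with 0 UMIs in adult cTEC (at least 69.3-fold and 48.5-fold). Klk14 and Klk6 had 1 cTEC UMI each, against 47.6 and 34.5 and 19.5 and 13.3 CPM in mTEC. Spink5, which encodes their inhibitor, was not called. Of 12 barrier lipid genes, 6 were lower, among them Sult2b1 (log2 -3.55 ± 0.50) and Alox12e (log2 -3.03 ± 0.45), and Cers3 was higher. Of 13 LY6 and secreted skin proteins, 9 were lower, with Psors1c2 at 117 and 193 CPM in mTEC against 1.86 and 0.749, Lgals7 at 41.8 and 151 against 1.40 and 0.499, Lypd2 at 39.5 and 108 against 2.33 and 0.999, and Slurp1 at 10.7 and 22.3 against 2.33 and 0. Of 24 differentiation transcription factors, 6 were lower (25%, against 21.1% of all genes tested) and 5 of 24 higher (against 11.2%). Zfp750 (log2 -2.57 ± 0.57) was lower, and Ets1 (log2 2.48 ± 0.43) and Maf (log2 1.86 ± 0.38) higher. DESeq2 called 62 of the list genes lower, and leaving out 1 library left 40 to 72.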

How the data were processed

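UMI counts per gene and cell were deposited by the authors as 1 matrix per library, not normalized. Per the labels and the submitters' processing notes, 10x Chromium v2 libraries were aligned to mm10 with Cell Ranger 2.0.1 (STAR 2.5.1b, bcl2fastq 2.17); the matrices of data set 2 name a later Cell Ranger in their headers. Libraries held 511 to 9066 cells and 2265451 to 95611246 UMIs as deposited (28334 cells in all), which sets the precision of every level, and intervals (95%, exact Poisson for levels, exact binomial for shares) cover counting error only. The 27514 genes in both gene lists were used.

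Cells were clustered per data set (scanpy 1.11.5, Leiden resolution 0.8, 20 components), and a cluster was left out where at least 3 and most of the markers of a non-epithelial class were 4-fold up. The limits of 5% mitochondrial UMIs and 5000 genes are those of the study, and no doublet caller was run. At E17.5 923 cells led by haemoglobin genes were left out this way. Levels are UMIs summed per library, scaled to 1000000 (CPM). Thinned shares are exact expectations for 2000 UMIs per cell, and cells under 2000 UMIs were left out (65 and 11 in adult cTEC). Member counts per cell used 1 seeded draw.

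Adult libraries were summed and tested with edgeR 4.0.16 (filterByExpr, TMM, quasi-likelihood, data set as a term, Benjamini-Hochberg over all genes, threshold 0.05); DESeq2 1.42.0, other scalings, filters, cell sets and depths and leaving out each library were alternatives. Younger ages have 1 library each and were not tested. On counts simulated for this comparison (15619 genes, 200 changed by log2 2), 157 were recovered with 6 false calls. These counts were drawn with the fit's own trend of spread and no data set effect, and the changed genes had an average log2 CPM above 3. The simulation checks that the code runs correctly and cannot give the rate of false calls in the real libraries. Named genes were the 10 members, up to 4 genes per list with the largest called change above an average log2 CPM of 3, 12 anchor genes, and the 10 genes most like the set. The members and lists were chosen with earlier results of these data known. Some genes that the rule for named genes picks are not reported here.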

Additional observations from a re-analysis of the deposited data

Results flagged for a closer look

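The adult lineage difference of Sbsn and of Spink5 took opposite directions in the 2 data sets. On the log2(CPM + 1) scale, cTEC minus mTEC, Sbsn was at 0.62 in data set 1 and -1.26 in data set 2, and Spink5 at 2.33 in data set 1 and -0.90 in data set 2. Each is 1 library against 1, and the difference between data sets was not tested. In adult cTEC replicate 1, 60 of 110 Sbsn UMIs and 66 of 251 Spink5 UMIs were in 1 cell, and in adult cTEC replicate 2 28 of 95 and 21 of 104. The part of these cells in the change of direction was not tested.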

How the results depend on the processing

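Of the 8 genes called lower, 7 or 8 were called with other scaling, no filter on low counts, no data set term or other sets of cells, with no change of direction in any alternative. DESeq2 called 2610 genes in all in place of 5044, and 5 of the 10. With each adult library left out in turn and no data set term, 1882 to 2834 genes, 3 to 7 of the 10 and 40 to 72 of the list genes were called; these fits have fewer samples, with 1 gate at 1 library that is assumed to vary like the other. Sprr1a, Dmkn and Krtdap were called in every fit run, these included. The value of Sbsn reversed to 0.084 without adult mTEC replicate 2 (range over left-out libraries -0.95 to 0.084) and to 0.62 in data set 1, and that of Spink5 to -0.48 without adult cTEC replicate 1 (range -0.48 to 1.55) and to -0.90 in data set 2; the cause was not tested. Of 45 pairs, 41 to 45 stayed above an observed over expected ratio of 1 at other depths and cell sets, against 21 and 23 of 28 with any expected cells in adult cTEC replicates 1 and 2 alone, 23 of 36 at E13.5, and 10 of 10 pairs with at least 5 expected cells in both adult mTEC libraries, a limit chosen after the data were seen. How many pairs of other genes lie above 1 was not computed. In all, 8 of 10 levels and 8 or 9 of 10 thinned shares were higher in both mTEC libraries under every alternative. For levels this was the case for 37.5% of all genes tested in the main setting. For thinned shares the value over all genes was not computed, so nothing is read from that count. The labels give no replicate numbers, and the pairing used is the data set, 1 cTEC and 1 mTEC library in each; without this term 4215 genes and 7 of the 10 were called. With 2146540 and 4005858 UMIs in adult cTEC, the floor of 3 UMIs over the group is 0.488 CPM.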

Other observations

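At E13.5 the genes with the highest correlations with the number of the 10 genes per cell, over 1786 cells, were Krt5 (r = 0.58), Mt1 (0.44), Krt17 (0.44), Clu (0.43) and Perp (0.40), named after their values were seen, and Krt5 had r = 0.21 and 0.03 in the adult mTEC libraries. Perp, a desmosomal protein, was the member of these 5 with the highest values in adult mTEC (0.26 and 0.29). Of the 5 genes most like the set in adult mTEC, Hspb1 (r = 0.29), Fxyd3 (0.28) and Sfn (0.27) were also among the 20 highest at E13.5. Ly6d, first in adult mTEC, had r = 0.15 at E13.5 and was detected in 0.392% of cells there. The cells of each library share capture and free RNA, and these values are descriptions.

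In adult mTEC the genes with the lowest correlations with the number of the 10 genes per cell included Rps4x at r = -0.24 and -0.26, Eef1a1 at -0.26 and -0.24, Ftl1 at -0.24 and -0.24, Rpl4 at -0.26 and -0.23, Ppia at -0.23 and -0.22, and Cd74, the invariant chain of antigen presentation (-0.25 and -0.21). Mki67, a marker of cycling cells, was at 12.6 and 22.8 CPM in adult mTEC with 0 of the 10 genes and 6.41 and 9.98 in those with at least 3, which are 1 and 8 UMIs, so no difference was detectable in replicate 1. Ccl21a was at 6751, 10670.1, 14205 and 10833 CPM in cells of replicate 1 with 0, 1, 2 and at least 3 of the genes, and at 3552, 3818, 4737 and 2022 CPM in replicate 2, so that in both libraries it was highest in cells with 2.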
